A study of Caenorhabditis elegans with 2 samples.

Results

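Gene-body peaks were the CEH-16 binding sites that lay inside protein-coding genes and away from the annotated starts of protein-coding transcripts. They were taken from the deposited list of 1358 peaks that passed the irreproducible discovery rate (IDR), which keeps peaks that rank alike between lists of peaks. Peaks on the deposited list could still differ in strength between the 2 replicates, as given below. A peak was a member when its summit lay more than 1000 bp from the 5′ end of every annotated protein-coding transcript (TSS) and inside a protein-coding gene. This rule, which used position and no signal value, gave 220 peaks, or 16.2% of the list. The other IDR peaks were 755 at promoters, 328 between genes and 55 in noncoding genes. With the 5′ ends of transcripts of every biotype in place of protein-coding ones the count was 131, and with a limit of 2000 bp it was 118.

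The study was a ChIP-seq experiment in Caenorhabditis elegans, with 2 biological replicates of 1 group. The worms were L2 larvae of pooled sexes from strain OP82, with the genotype unc-119(tm4063) III; wgIs82. In that strain an inserted transgene supplies CEH-16 fused to eGFP, and the labels name this fusion as the target of the precipitation. Chromatin came from whole larvae, so a peak does not say in which cells it arose, and neither an untagged strain nor the control library was analysed here.

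CEH-16 is the engrailed-class homeodomain protein of the worm. It acts in the seam cells, the lateral epidermal cells that divide in a stem-like way through the larval stages, where it keeps them from fusing with the surrounding epidermis. Homeodomains of this class bind short AT-rich cores. Worm introns are mostly very short, and the long ones can carry enhancers, alternative promoters and genes for small RNAs.

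The sequences under the strongest gene-body peaks are shown first, from the forward strand of the RefSeq WBcel235 genome. The summit sequences show what lay at the point of highest enrichment, with the summit base in capitals. They come from 4 of the 6 strongest members on the chromosomes used for sequences, and lron-1 and T23G4.127, whose summits lay in 3′ UTRs, are left out. Beneath them stand homeodomain cores, in capitals, from the strongest members that held one within 100 bp of the summit. A core was TAATTA, or else TAATTG, which reads as CAATTA on the other strand. The core of cyd-1, in a 5′ UTR, is left out. Last stand GAGAGA elements (TCTCTC when on the other strand, in capitals), which were chosen after the motif shares had been seen.
mom-1 summit, chrX:6296508-6296537: taagcgaagggacacCcaatcgattgccca
pks-1 summit, chrX:5429516-5429545: ccccttccactctaaCcttatccaagagac
akap-1 summit, chrIII:6364505-6364534: gtgcgcttatcaagaAtttcgatcatcagt
F58G1.7 summit, chrII:12944986-12945015: ggactagtgctcgcgTgtgtgccgacatgt
mom-1 core, chrX:6296487-6296516: ctcaaacgtgagTAATTAttttaagcgaag
pks-1 core, chrX:5429439-5429468: aggtagggtactTAATTAtccctcgatttt
akap-1 core, chrIII:6364456-6364485: agagacggtaatTAATTAccgtcgaaaaat
C14H10.2 core, chrX:10245873-10245902: ctaccaatgaacTAATTAtcacaatttctg
shc-2 core, chrII:4982231-4982260: gccctcttgcctCAATTAgaaaaagttgtc
pks-1 GAGAGA, chrX:5429459-5429488: cctcgatttttaTCTCTCcgttgtaggcaa
F58G1.7 GAGAGA, chrII:12945061-12945090: cgaggagaatgtGAGAGAgtgggagaatga
vav-1 GAGAGA, chrX:9228558-9228587: ttctattttattTCTCTCtttctcattctc
T28B11.1 GAGAGA, chrV:10717421-10717450: aagatagagaaaGAGAGAtcacagagtggt

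On the forward strand, the core began at -24 bp from the summit at mom-1, at -52 bp at akap-1 and at -80 bp at pks-1, where minus is to the left. It began 70 bp to the right of the summit at C14H10.2 and 9 bp to the right at shc-2. None of these cores covered the summit base itself.

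The strongest gene-body peak lay in mom-1 (WBGene00003394), which encodes the Porcupine-class acyltransferase that Wnt ligands need to be secreted. Its signal, an enrichment in the units of the authors' caller, was 115.6 in the IDR list, 59.6 in replicate 1 and 56.6 in replicate 2. The interval chrX:6296499-6296605 had its summit in intron 7, the last of the gene, 30 bp from the donor site and 3411 bp downstream of a mom-1 TSS. It ranked 11 in the whole IDR list.

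The next peaks lay in pks-1, lron-1, dys-1 and akap-1. In pks-1, a polyketide synthase gene, the summit at chrX:5429498-5429580 lay in a coding exon, 15181 bp from the nearest TSS, the farthest of all 220. Its signal was 111.2, with 53.8 and 57.5 in replicates 1 and 2. The lron-1 peak, in a gene for a protein with extracellular leucine-rich repeats, lay in the 3′ UTR with signal 110.2, and with 49.7 and 58.6 in the replicates. Its summit lay 99.97% along lron-1, and the nearest TSS was that of let-4, at 1811 bp. No other member had its summit in more than 1 protein-coding gene, so the assignment to lron-1 alone is a convention. The dys-1 peak (chrI:11554511-11554653, intron 4 of 46) had signal 109.7, with 63.8 and 47.0 in the replicates. dys-1 encodes dystrophin, which links the muscle cytoskeleton to the membrane. The akap-1 peak (chrIII:6364453-6364611, intron 13 of 14) had signal 109.0, with 48.5 and 57.7. akap-1 encodes an A-kinase anchoring protein, and in each of these genes the 2 replicates were within 1.5-fold of each other.

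The 25 gene-body peaks of highest signal lay in 24 genes and reached down to a signal of 64.6. Of these, 21 were in introns, 3 in UTRs and 1 in a coding exon, and 10 were on X, where 25.5% of all IDR peaks lay. All 25 were among the 1358 highest-signal intervals (the top peaks) of both replicates, as were 53% of all IDR peaks. Signalling and channel genes among the hosts were vav-1, of the Vav family (89.8), shc-2, an adaptor of the Shc family (65.1), and unc-2, the alpha subunit of a presynaptic voltage-gated calcium channel (68.9). The phosphatase 4 regulatory subunit gene ppfr-1 had 65.8, and its summit window was 94.5% soft-masked as repeat in the genome. How uniquely reads map there was not tested.

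Epithelial and cytoskeletal hosts among the 25 were vab-10, the spectraplakin gene of epidermal attachments (64.8), ajm-1, which encodes a protein of the apical junction of epithelia (64.6), and the dynein heavy chain gene dhc-4 (65.5). igcm-3, of a family of immunoglobulin-like adhesion molecules, had 76.2. Regulators of gene expression and division were egl-18, a GATA factor of seam cell fate (65.2), the nuclear hormone receptor gene nhr-91 (66.8) and cyd-1, which encodes cyclin D. cyd-1 carried 2 of the 25, at 67.7 in its 5′ UTR and 67.6 in intron 5. fnci-1, a gene of the Fanconi anaemia repair pathway, had 74.98. The remaining hosts were pqn-41, which encodes a glutamine-rich protein needed for the death of the linker cell (76.9), scd-1 (67.5) and, given without a role, T23G4.127 (96.6), F58G1.7 (96.5), Y111B2A.12 (93.9), T28B11.1 (88.2) and C14H10.2 (72.2).

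Introns held nearly all of the gene-body peaks. A summit lay in an intron in 199 of 220 (90.5%, 95% Wilson interval 85.8 to 93.7%), in a coding exon in 13 (5.91%, 3.49 to 9.85%) and in a UTR in 8 (3.64%, 1.85 to 7.01%). Of all gene bases beyond 1000 bp of every TSS, 57.1% were intronic, 37.0% coding and 5.89% UTR. This came to 10.1 peaks per Mb of intron, 1.02 per Mb of coding exon and 3.93 per Mb of UTR. The 9129 pooled intervals in gene bodies that overlapped no IDR peak were 52.6% intronic and 40.1% coding, close to the bases and unlike the IDR peaks. Intervals here and below cover counting error only, and 1 group of 2 replicates allows no test over samples.

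**Figure D1:**
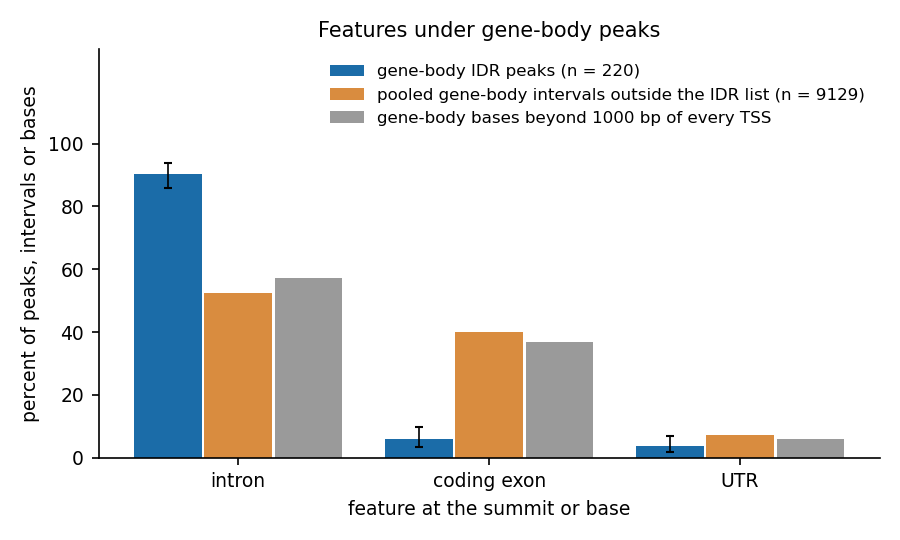
Share of gene-body IDR peaks (blue, with 95% Wilson intervals), of pooled gene-body intervals outside the IDR list (orange) and of eligible gene-body bases (grey) in introns, coding exons and UTRs. Introns held 90.5% of the peaks but 57.1% of the bases, and coding exons held 5.91% of the peaks but 37.0% of the bases.

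Peaks in coding exons and UTRs were few but included some of the strongest. The 10 of highest signal, by class, were pks-1, cutl-27, tba-8, igcm-4 and srw-85 in coding exons, lron-1, T23G4.127 and C05D11.8 in 3′ UTRs, and cyd-1 and C34C12.2 in 5′ UTRs. The T23G4.127 peak had 57.4 and 44.4 in replicates 1 and 2. The cyd-1 UTR peak had 24.2 and 53.5, and C34C12.2 had 61.6 in the IDR list and 26.3 and 33.6 in the replicates. Below these the signals dropped to 44.8 in the cuticlin-like gene cutl-27 and 44.1 in the alpha-tubulin gene tba-8. The igcm-4 peak had 41.7, with 10.4 in replicate 1 and 31.1 in replicate 2, and the peak in the serpentine receptor gene srw-85 had 37.1, with 33.6 and 7.86. Those 2 were each a top peak in 1 replicate only. C05D11.8 had 34.7. The median was 33.1 over the 13 coding exon peaks, of which 4 were top peaks in both replicates, and 48.1 over the 8 UTR peaks, of which 6 were. The intervals of these shares (12.7 to 57.6% and 40.9 to 92.9%) both covered the 49.1% of all gene-body peaks and the 53% of all IDR peaks.

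The introns with peaks were long. Their median length was 3402 bp over the 199 intronic peaks (95% interval of the median 2656 to 4541 bp), from 173 to 19927 bp. The median over all 109051 annotated introns was 68 bp, and 7.70% of those were longer than 1000 bp. Long introns also hold more bases, so the lengths were set beside the bases that could have held a summit. Of the intronic bases beyond 1000 bp of every TSS, 55.1% lay in introns over 1000 bp, against 152 of 199 peaks (76.4%, 70.02 to 81.7%).

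The number of peaks per Mb of eligible intron differed between short and long introns. It was 6.004 in introns up to 500 bp, 4.55 from 501 to 1000 bp and 5.91 from 1001 to 2000 bp. It was 14.7 from 2001 to 5000 bp, 20.9 from 5001 to 10000 bp and 26.4 above 10000 bp. Each of the 3 longer classes thus had a higher count per Mb than any of the 3 shorter ones, a difference given without a test.

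First introns held 54 of the 199 intronic peaks (27.1%, 21.4 to 33.7%) and 13.02% of the eligible intronic bases, which is 21.1 peaks per Mb. Introns of rank 2 held 13.4 per Mb, those of rank 3 7.29, of rank 4 9.31, of rank 5 10.6 and of rank 6 or more 6.51. Rank and length went together: the first introns with peaks had a median length of 7934 bp (6391 to 9221 bp) and the later ones 2148 bp (1433 to 2944 bp). The part of length in the ranks was not tested. The intervals of their median signals overlapped, with medians of 36.2 (32.2 to 41.8) in first introns and 33.8 (31.7 to 37.0) in later ones. Last introns held 14 peaks. Summits lay at a median of 51.2% of the intron from its donor site (45.1 to 55.4%), and 51 were within 200 bp of a splice site.

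**Figure D2:**
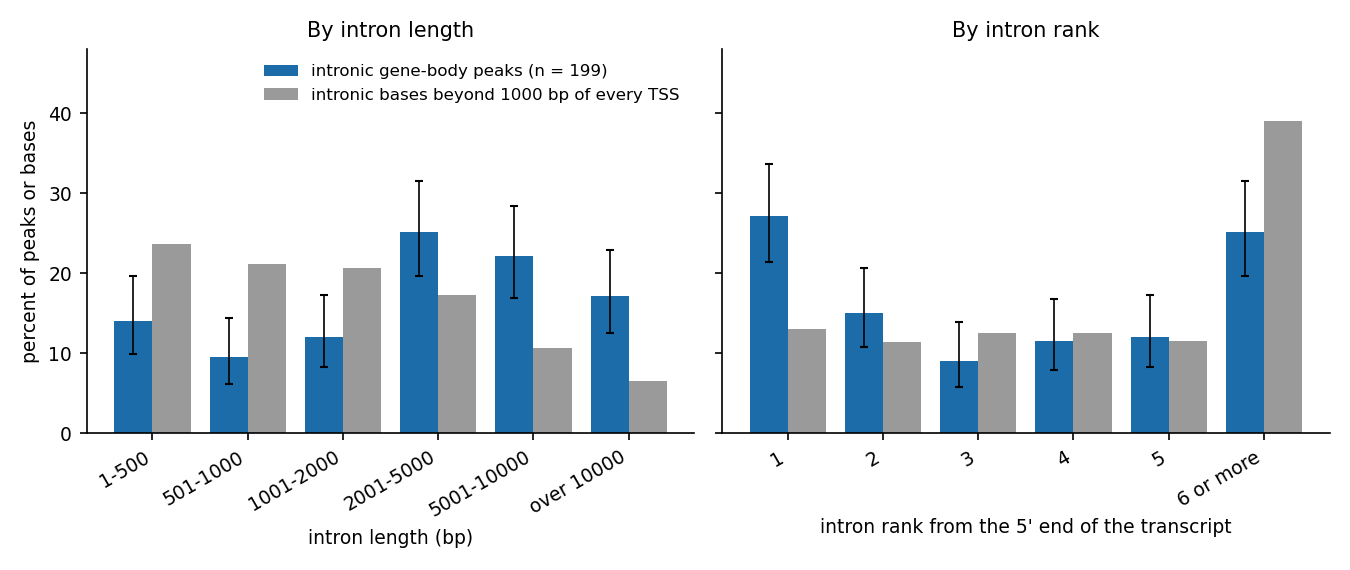
Share of the 199 intronic gene-body peaks (blue, with 95% Wilson intervals) and of eligible intronic bases (grey) by intron length in bp and by intron rank in the transcript of longest span. Introns over 10000 bp held 17.1% of the peaks and 6.54% of the bases, and first introns held 27.1% and 13.02%.

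Many summits that were far from a start still lay nearest to a start of their own gene. The nearest TSS belonged to the host in 174 of 220, at a median distance of 2084 bp over all members (1843 to 2342 bp). The summit lay downstream of the nearest host TSS in 145 and upstream of it in 75, which is possible inside a gene that has alternative starts. In 102 members the distance was at most 2000 bp, and in 17 it was over 5000 bp. Just inside the limit were F33G12.3 and ell-1, both 1011 bp from a TSS, with signals 25.001 and 26.28. Just outside it were act-4, at 998 bp with signal 42.5, and snx-17, at 984 bp with 39.4. The TSS here is the annotated transcript end, which for the many trans-spliced worm genes is not the site of initiation.

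The 220 peaks lay in 166 host genes, 1.16% of the 14265 protein-coding genes that had any base beyond 1000 bp of every TSS. Of the hosts, 125 had 1 peak, 30 had 2, 9 had 3 and 2 had 4. Hosts were long, with a median of 8562 bp (7144 to 10557 bp) against 2705 bp for eligible genes without a gene-body peak. Even per eligible base the longer genes held more: 3.04 peaks per Mb in genes up to 5000 bp, 6.07 from 5001 to 10000 bp, 9.22 from 10001 to 20000 bp and 12.1 above 20000 bp.

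ajm-1 and ppfr-1 carried 4 peaks each. In ajm-1 (chrX:9082946-9113619) they lay in introns 2, 4, 10 and 11 of 28. The peak in intron 2 had signal 64.6, with 37.6 and 27.3 in replicates 1 and 2, and the other three had 25.2, 24.9 and 25.6. Each of the 4 windows held a homeodomain core, and the intron 2 peak alone was a top peak in both replicates. In ppfr-1 the peak in intron 4 had 65.8 (50.1 and 21.5 in the replicates), and those in intron 5 had 43.9, 31.7 and 23.7. The weakest of them overlapped no interval of replicate 1.

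Of the hosts of 3 or more peaks, pqn-41 was the only one whose peaks were all top peaks in both replicates. Its 3 peaks shared intron 14, of 10372 bp, with signals of 76.9, 58.4 and 55.4. In replicate 1 they had 61.4, 34.2 and 38.6, and in replicate 2 19.9, 25.5 and 29.3, so the order of the 3 differed between the replicates. In cyd-1 another peak, of 24.5, lay in intron 2, between the pair named above. Y111B2A.12 had 93.9, 33.1 and 26.6, all in intron 4, and Y48C3A.5 had 61.0, 32.5 and 28.6 within an intron of 19927 bp, the longest with a peak. lsy-22, which encodes a short Groucho-like corepressor, had 47.1, 28.0 and 23.5 in its intron 1 of 11392 bp, and none of those was a top peak in both replicates.

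cdc-25.2, a gene of the Cdc25 phosphatases that drive mitotic entry, had 45.1, 36.8 and 34.8. The peak of 36.8 lay at the annotated start of the gene, 0.488% along it. It was a member because the nearest protein-coding TSS was 10525 bp downstream of its summit. anc-1, the giant KASH-domain protein that anchors nuclei to actin, had 42.6, 37.0 and 28.4 in introns 3, 4 and 9 of 29. C30F12.5 had 40.1, 23.7 and 23.5, and cwf-19L2, a splicing factor gene, had 29.3, 25.2 and 24.2. In 9 of the 11 hosts of 3 or more peaks, at least 1 peak was a top peak in both replicates while another was not, the exceptions being pqn-41 and lsy-22. Over all members, 167 distinct introns held a peak, 27 of them held 2 or more, and the 5 with 3 were those of lsy-22, ppfr-1, Y48C3A.5, pqn-41 and Y111B2A.12. The pair in intron 1 of egl-18, with summits 199 bp apart and signals of 65.2 and 41.0, was the only neighbouring pair whose intervals overlapped. Both lay on the same replicate intervals (35.6 and 29.5), so they are not 2 separate measurements.

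**Figure D3:**
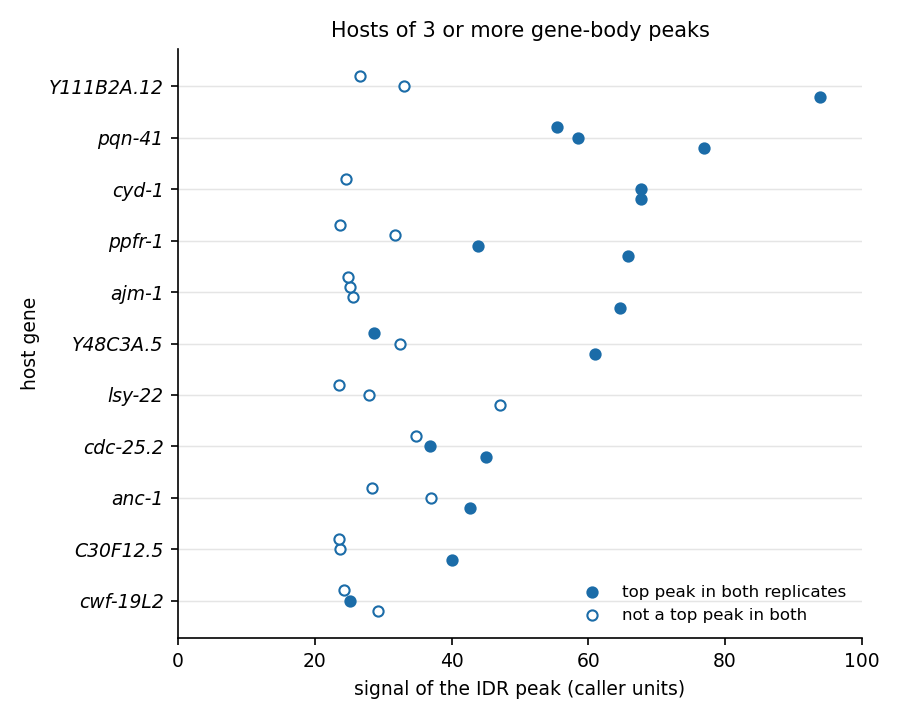
Signal of each gene-body peak (x axis, caller units) in the 11 genes that hosted 3 or more, filled where the peak was a top peak in both replicates. Points of a gene are set apart vertically to keep them visible. The 3 peaks of pqn-41 are filled and lie between 55.4 and 76.9, whereas ajm-1 has 1 filled peak at 64.6 and the others near 25.

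Hosts of gene-body peaks had a promoter peak of their own in 33 of 166 (19.9%, 14.5 to 26.6%), against 3.58% of all eligible genes and 3.38% of those without a gene-body peak. The hosts were above the others within each class of gene length. In genes up to 5000 bp the share was 5.26% of hosts and 2.85% of the others, from 5001 to 10000 bp 21.2% and 5.28%, from 10001 to 20000 bp 26.1% and 5.59%, and above 20000 bp 26.7% and 3.57%. In the shortest class only 2 hosts had a promoter peak. vab-10 had 3 such peaks and akap-1 1, whereas mom-1, pks-1 and dys-1 had none.

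Some regulators of the epidermis and of larval timing were among the hosts. Of 23 eligible seam and epidermal regulators 5 were hosts (21.7%, 9.66 to 41.9%), against 1.16% of all eligible genes, with 7 peaks and 75.2 peaks per Mb of eligible gene body, where all genes had 6.36. After egl-18 came nhr-25, a nuclear receptor of epidermal development and molting, with 56.7 in intron 9 (29.9 and 29.4 in replicates 1 and 2). The epidermal GATA factor gene elt-3 had 33.8 (19.1 and 16.3). elt-1, the GATA factor that specifies epidermal fate, had 33.4 and 27.5 in intron 6, of 1091 bp. unc-62, of the Meis class, had 23.4 in a 5′ UTR (14.5 and 9.66). Of the 7 peaks, 5 were top peaks in both replicates, next to 49.1% of all gene-body peaks, and the median signal was 33.8, next to 34.1. With the overlapping pair of egl-18 counted once, 4 of 6 were top peaks in both replicates, at 64.5 peaks per Mb. ceh-16 itself was on the list and was no host.

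Of 22 eligible heterochronic genes, the timers of larval development, 4 were hosts (18.2%, 7.31 to 38.5%), at 35.3 peaks per Mb. The nuclear receptor gene daf-12 had 61.3 in intron 1 (36.3 and 20.4 in the replicates). lin-42, the Period homologue that times molts, had 41.9 (24.1 and 31.5) and 35.6 (29.9 and 2.86), of which the second was strong in replicate 1 only. kin-20, a casein kinase gene, had 29.6 (14.7 and 21.0), and myrf-1, a membrane-bound transcription factor, had 29.1 (3.99 and 18.3). Of 31 Wnt pathway genes 2 were hosts (6.45%, 1.79 to 20.7%), mom-1 and lit-1, a kinase of the Nemo family (24.1, with 15.1 and 3.596). The lists were chosen with earlier results of these data known, and a gene can stand on several.

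The other 7 lists gave between 3.34 and 14.1 peaks per Mb, and their shares of hosts are set beside the 1.16% of all eligible genes. That share itself rose with gene length. It was 0.344% in eligible genes up to 5000 bp, 5.76% from 10001 to 20000 bp and 15.2% above 20000 bp. The part of gene length in the shares of any list, here or above, was not tested. Of 84 cytoskeletal and attachment genes 5 were hosts (5.95%, 2.57 to 13.2%), with 11 peaks, led by dys-1, vab-10 and ajm-1. Of 88 adhesion and guidance genes 6 were hosts (6.82%, 3.16 to 14.1%), led by sax-2, the Furry homologue (63.8), unc-53, a regulator of cell migration (50.2), and the semaphorin gene smp-1 (36.9). Of 248 nuclear hormone receptor genes 5 were hosts (2.02%, 0.864 to 4.63%), led by nhr-91, daf-12 and nhr-25, and this interval covered the share of all eligible genes. nhr-91 had 2 peaks, 66.8 and 56.6, both in intron 3 and both top peaks in both replicates. Of 112 other developmental transcription factors 5 were hosts (4.46%, 1.92 to 10.03%), led by hlh-30, the TFEB homologue (52.3), the FOXO gene daf-16 (46.7) and the bZIP gene atf-7 (27.7).

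The ion channel, synaptic and homeobox lists had fewer peaks per Mb than all genes. The shares of hosts in the ion channel and synaptic lists were above that of all eligible genes. In the homeobox list the share equalled it when rounded and rested on 1 gene. Of 82 ion channel genes 2 were hosts (2.44%, 0.671 to 8.46%), unc-2 and the glutamate receptor gene glr-2 (25.8), at 3.34 peaks per Mb. Of 81 synaptic and G protein genes 3 were hosts (3.70%, 1.27 to 10.3%), unc-41 (24.98), pkc-2 (23.4) and unc-14 (23.4), at 4.91 per Mb. Of 86 homeobox genes unc-62 was the sole host (1.16%, 0.206 to 6.30%), at 4.21 per Mb. These 3 lists were the ones below the 6.36 per Mb of all genes, and the intervals of 2 of their host shares, for ion channel and homeobox genes, covered 1.16%.

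Gene-body peaks had a median signal near that of the rest of the IDR list. Their median signal was 34.1 (32.6 to 37.0), from 23.2 to 115.6, and that of the other 1138 IDR peaks was 33.3 (32.4 to 34.3). At promoters it was 33.5 and between genes 33.2. Of the 100 highest IDR peaks 14 were gene-body peaks. Most intervals had a fixed width of 296 bp. The 13 narrower gene-body intervals had a median signal of 96.5 (64.8 to 110.2) and were all top peaks in both replicates, and the other 207 had 33.4 (32.0 to 35.1).

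The replicates ranked the gene-body peaks only loosely alike. The median was 19.6 (17.5 to 21.8) in replicate 1 and 17.4 (15.6 to 19.5) in replicate 2. Of the 220 peaks, 108 (49.1%, 42.6 to 55.7%) were top peaks in both replicates, against 53% of all IDR peaks. A further 53 were top peaks in replicate 1 only, 44 in replicate 2 only and 15 in neither. The signals differed by more than 2-fold in 70 of the 218 peaks with a value in each replicate, and by more than 4-fold in 12. Across those 218 peaks Pearson's r of log2 signal was 0.23 and Spearman's rank correlation 0.255, given as a description because peaks of 1 library share its depth. Over the other IDR peaks the values were 0.21 and 0.229.

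Strength and agreement went together at the upper end. The 50 strongest gene-body peaks were top peaks in both replicates without exception, and the strongest that was not had a signal of 48.7. The median was 46.8 (41.8 to 53.2) over the 108 and 28.6 (27.4 to 30.3) over the other 112. The IDR list was itself derived from both replicates, so these values are not independent of it. Weak peaks fell on both sides: those of unc-62, lit-1 and myrf-1 were not top peaks in both replicates, whereas those of kin-20 and unc-41 were.

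**Figure D4:**
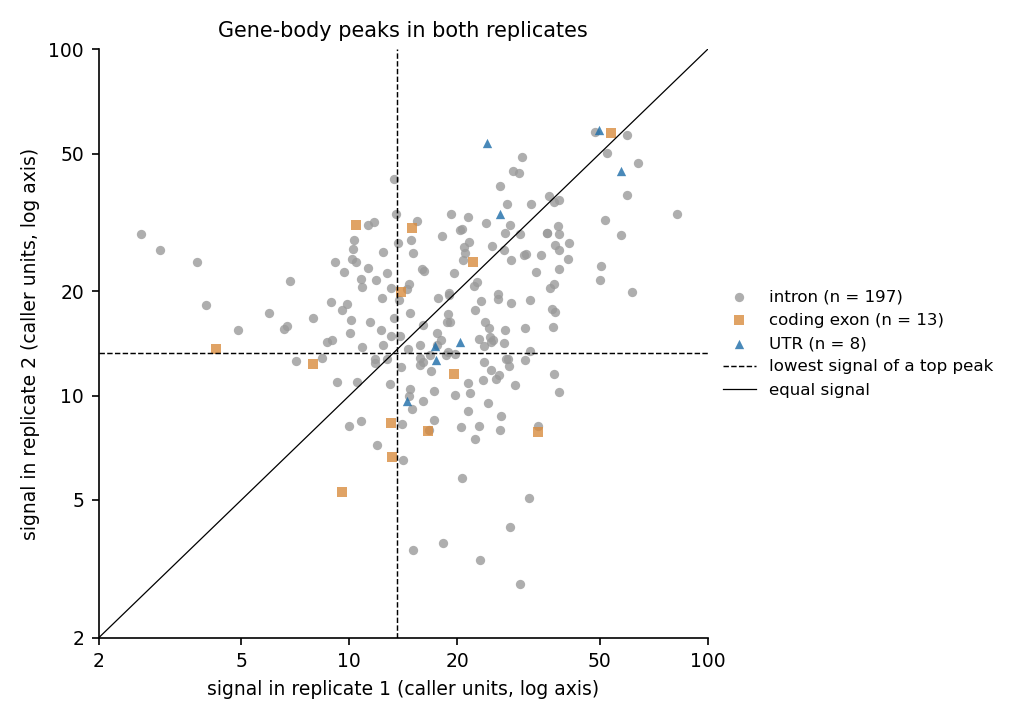
Signal of the 218 gene-body peaks in replicate 1 and replicate 2 (log axes, caller units), by feature, where dashed lines mark the lowest signal of a top peak in each replicate and the solid line marks equal signal. The points scatter widely about the line, and 108 of all 220 peaks overlap a top peak in both replicates.

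Small RNA genes lay beside a share of the gene-body peaks, a measure chosen after the files had been seen. The search covered tRNA, snoRNA, snRNA, miRNA, miRNA precursor and rRNA genes. A small RNA gene was within 200 bp of the summit in 32 of 220 (14.5%, 10.5 to 19.8%), against 8.32% of all IDR peaks. The share was 7.12% of the other IDR peaks and 1.54% of the pooled gene-body intervals outside the list. Among the other IDR peaks the share was 6.89% at promoters, 6.40% between genes and 14.5% (8 of 55) in noncoding genes, the same as in gene bodies. Such places made up 0.521% of the eligible bases. The genes were 18 snoRNA, 9 tRNA and 5 snRNA genes, with no miRNA or rRNA gene among them. The summit lay upstream of the small RNA gene's 5′ end in 23, inside the gene in 8 and downstream of it in 1. The small RNA gene was on the strand of its host in 21 of the 32.

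The strongest of these was in F58G1.7, 34 bp upstream of sup-6, annotated as an snRNA gene, with signal 96.5 and 81.9 and 33.6 in replicates 1 and 2. The dhc-4 summit lay 66 bp upstream of the snRNA gene R07E5.16, with 65.5 in the IDR list and 29.8 and 43.8 in the replicates. In frm-7 a peak of 55.2 (33.1 and 22.7) lay inside the snoRNA gene C51F7.4. The peaks of glr-2 and unc-41 named above also belong here, 43 bp upstream of the spliced leader gene sls-2.5 and 65 bp upstream of a snoRNA gene. So does the peak of pkc-2, whose summit lay inside a tRNA gene. Of the 28 gene-body peaks in introns up to 500 bp, 19 had a small RNA gene within 200 bp. Of the 32, 13 were top peaks in both replicates (40.6%, 25.5 to 57.7%), against 50.5% of the other members. Over all IDR peaks that share was 53%. The median signal of the 32 was 32.0 (27.1 to 39.8) against 34.9 (33.1 to 37.6) for the other members. Signal at the small RNA gene and signal at the host cannot be told apart at these summits. Over all members, 29 of 220 summits (13.2%, 9.34 to 18.3%) lay inside a noncoding gene of any biotype, against 1.55% of eligible bases. Genes of biotype ncRNA held 20 of the 220 (9.09%), against 0.761% of bases. Among them were the peaks of T28B11.1 (88.2), nhr-91 (66.8), ppfr-1 (65.8), ajm-1 (64.6), lin-42 (41.9) and elt-3 (33.8). Signal at the noncoding gene and at the host cannot be told apart there either. Neither share was computed over all IDR peaks, so they are not shown to be particular to gene bodies. Of the IDR peaks beyond promoters and gene bodies, 55 had the summit in a noncoding gene and 328 did not.

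The homeodomain core was found under a minority of gene-body peaks, at a share whose interval covered that of gene bodies in general. It was searched on both strands in the 201 bp window around each summit, and 41 of 220 windows held one (18.6%, 14.05 to 24.3%), against 15.4% of all IDR windows. The share was 25.5% and 21.8% in windows centred 500 bp to the left and right of the same summits. It was 20.2% at pooled gene-body intervals outside the list and 21.2% over 158053 windows of the same length tiled along eligible gene bodies. The median GC content was 45.3% in the member windows and 36.3% in the flanking and tiled ones. The part of GC content was not tested. Of the 25 strongest peaks, 10 had a core, and over all members the median signal was 34.9 (29.1 to 55.4) with a core and 33.8 (32.2 to 36.9) without.

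Of the 4 motifs searched, GAGAGA differed most between summit windows and their surroundings. It lay in 97 of 220 member windows (44.1%, 37.7 to 50.7%), against 40.8% of all IDR windows. In the flanking windows the share was 14.5% on the left and 13.2% on the right, at pooled gene-body intervals outside the list 13.9%, and in the tiled windows 9.36%. The median GC content was 45.3% in member windows, 38.8% at the pooled intervals and 36.3% in the flanking and tiled windows. Its part in these shares was not tested. Among all 2080 words of 6 letters, with reverse complements merged, GAGAGA had the largest excess in percentage points over the tiled windows, followed by the overlapping AGAGAG (37.7% against 7.22%). The other IDR windows had it at 40.2%, so the gene-body peaks shared this feature with the list as a whole. Windows with GAGAGA had a median signal of 33.8 (31.8 to 38.7) and those without 34.7 (32.0 to 37.5).

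The other 2 motifs were in fewer windows. TGATAA, the site of GATA factors, lay in 24 windows (10.9%, 7.44 to 15.7%), against 9.72% of all IDR windows, 10.5% and 17.3% of the flanks, 15.7% of the pooled gene-body intervals outside the list and 16.9% of the tiled windows. The shares of the right flank, the pooled intervals and the tiled windows lay at or above the upper end of the members' interval. The part of GC content was not tested. It can share bases with a TAATTA core, as in the C14H10.2 sequence above. The E-box CACGTG lay in 13 windows (5.91%, 3.49 to 9.85%), against 5.96% of all IDR windows, 3.18% and 1.82% of the flanks, 4.51% of the pooled gene-body intervals and 3.61% of the tiled windows. For the E-box, too, the part of GC content was not tested. A match describes the letters of the window and nothing more.

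**Figure D5:**
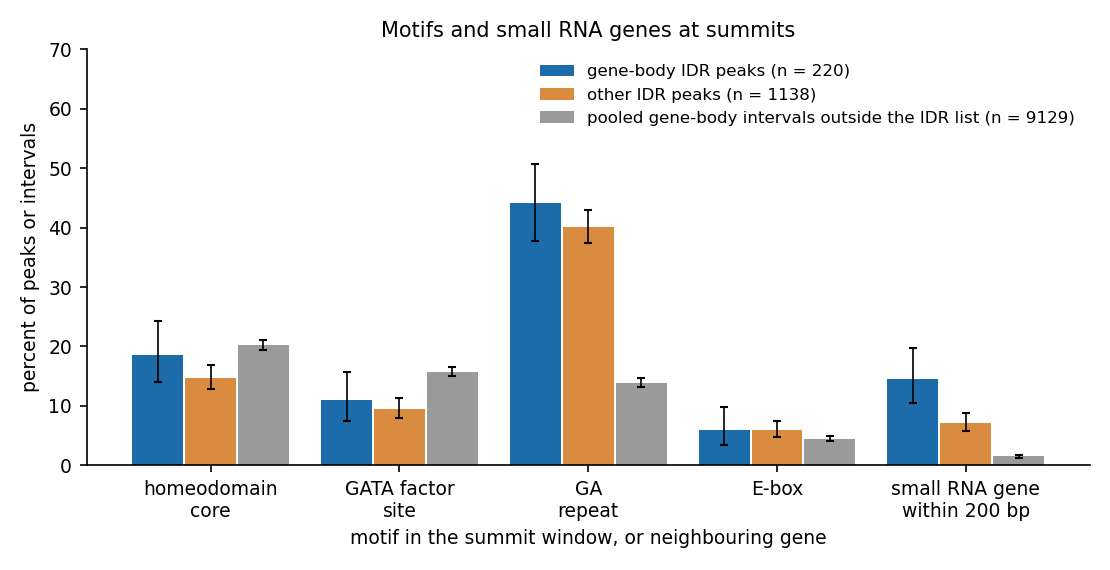
Share of gene-body IDR peaks (blue), other IDR peaks (orange) and pooled gene-body intervals outside the IDR list (grey) whose summit window held each motif or that had a small RNA gene within 200 bp, with 95% Wilson intervals. The GA repeat (GAGAGA) was held by 44.1%, 40.2% and 13.9%, and the small RNA genes by 14.5%, 7.12% and 1.54%.

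By chromosome, X held 49 of the 220 gene-body peaks (22.3%, 17.3 to 28.2%), against 25.5% of all IDR peaks, 17.2% of eligible bases and 19.7% of pooled gene-body intervals outside the list. Per Mb of eligible bases the count was 8.25 on X, 7.09 on II and III, 5.96 on I, 5.02 on V and 4.83 on IV. The median signal on X was 35.1 (31.2 to 49.2) and elsewhere 33.8 (32.4 to 36.8). Signal was compared between members by 12 splits in all, and the intervals of the medians were apart only for the narrow intervals and for peaks that were top in both replicates.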

How the data were processed

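ChIP-seq peak lists were used, and no read counts, so the read depth behind a value is unknown. Per the text notes deposited with the peak lists, which have no header lines, the authors made a relaxed list of peaks and background for each replicate and for the pooled data, and an IDR-thresholded list derived from them. The deposited lists give, per interval, a signal value, the −log10 of a q-value (the same for every IDR peak, so not used for ranking) and the summit as an offset. For the aligner, caller and threshold, the entry is: not given in the sources used here. Intervals had no columns of other samples.

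The ce11 lists were compared with Ensembl release 115 (WBcel235) in Python 3.11.15 with numpy 2.4.6 and scipy 1.17.1, and drawn with matplotlib 3.10.9. Coordinates are 1-based. A base was classed as coding exon before UTR before intron, with introns from the host transcript of longest span, and overlapping hosts resolved to the longest gene. In 1 member the intron belonged to a noncoding isoform. A replicate value is the highest-signal interval that overlaps the peak by at least 1 bp, and top peaks are the 1358 of highest signal. Shares have 95% Wilson intervals and medians 95% order-statistic intervals. Base classification was tested on simulated positions.

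The named genes are the hosts of the 25 highest peaks, hosts of 3 or more peaks, the 10 highest coding exon or UTR peaks, up to 3 per gene list, and the peaks at the 1000 bp limit. Others named were chosen after their values were seen. The members, lists and tests were chosen with earlier results of these data known.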

Additional observations from a re-analysis of the deposited data

How the results depend on the processing

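Of 84 recalculations of 12 results, 68 stayed within the interval of the value given, or within 1.5 times for a count. Those with the interval midpoint could hardly move, because most intervals were 296 bp wide with the summit near the middle. The number of gene-body peaks was 118 with a 2000 bp limit, 131 with the 5′ ends of every biotype, 115 among IDR peaks at or above the median signal and 108 among top peaks of both replicates. Hosts numbered 93, 99 and 100 under the first 3. The median signal was 45.9 at or above the median and 46.8 for top peaks of both replicates. The top peaks of 1 replicate alone gave 19.2 to 19.8, on their own scale. The share of top peaks in both was 78.3% at or above the median. The first-intron share was 38.2% with the lowest rank over transcripts, the median intron length 4935 bp with the 5′ ends of every biotype, and the homeodomain core share 9.55% within 50 bp. For fewer peaks or smaller windows the construction gives the drop. Keeping peaks at or above the median signal can only raise the median signal, and taking the lowest rank can only raise the first-intron share. For the others the cause was not tested. GAGAGA was in 23.6% within 50 bp. The settings with top peaks of both replicates, without small RNA neighbours, with overlapping intervals counted once, and those for GAGAGA and small RNA genes were chosen after seeing the data. No paired analysis was possible because there is 1 group. Depth is unknown, and 2 replicates cannot give the spread between larvae.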
